A study of Mus musculus with 8 samples.

Results

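Probes named only by an AK accession, the DDBJ prefix under which mouse full-length cDNA records such as those of the RIKEN collection were deposited, made up 2497 of the 55681 distinct non-control probes (4.48%) of the array and came from 2457 accessions. They were taken as all non-control probes whose name in the scanner files is AK followed by digits only. Full-length cDNA collections were built by copying polyadenylated RNA from many tissues and stages from cap to tail, so they hold protein-coding transcripts beside transcripts for which no open reading frame was recognised. Polycomb Repressive Complex 2 (PRC2), of which EED is an essential component, methylates histone 3 at lysine 27 and so represses transcription of many developmental genes. The files give these probes no gene name, coding class, tissue of origin, probe sequence or genome position, and none of the AK accessions matched the RefSeq gene table, so each probe is identified by its accession and probe ID.

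Expression was measured in 8 whole embryos at embryonic day 8.5, with 1 embryo per Agilent SurePrint G3 Mouse GE array, to compare offspring of fathers that differed in EED function. All embryos were heterozygous for the hypomorphic allele Eedl7Rn5-1989SB, which lowers but does not abolish EED function, came from wild-type mothers and were of C57bl6/129 background. The groups were 4 embryos of homozygous, Eed hypo/hypo, fathers ("HOM father") and 4 embryos of heterozygous, Eed hypo/wt, fathers ("HET father"), each with 2 females and 2 males. The study's methods give fewer fathers than embryos per group, so some embryos had the same father, and each group was hybridised on 1 slide of its own, so father and slide cannot be told apart. The paper states that HOM and HET fathers were littermate pairs of brothers, but the labels do not tie embryos to these pairs.

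Signal is given throughout as log2 processed intensity minus the 75th percentile of the array, so that 0 is that percentile, and a father difference is the HOM father mean minus the HET father mean on this log2 scale. Signals of different probes also depend on the probes themselves and are not a measure of which transcript was more abundant. All 8 listed markers of the embryo proper, all 4 of yolk sac endoderm and all 4 of primitive blood were well above background on every array. For decidua, 2 of 3 listed markers were well above background on every array and Prl3c1 on none, and the summed signal of the list ran from 2.88 to 4.83 in the HOM father group and from 2.48 to 3.37 in the HET father group. For trophoblast, 3 of 4 listed markers had a probe, of which 2 were well above background on every array and Tpbpa on none, with a summed signal of -0.36 to 2.83 and -1.16 to 0.82 in the same order. Both ranges overlapped between the groups, but single markers differed more than the sums. Prl8a2 of decidua had means of 2.55 with HOM and -0.42 with HET fathers (limma adjusted p = 0.215), whereas Cryab had 2.57 and 2.56. Of trophoblast, Prl3d1 had means of 0.61 and -1.27 (limma adjusted p = 0.208) and Ascl2 of -0.88 and -1.48 in the same order. The part of these tissues in the results was not tested. In whole embryos, fewer cells of a type and less RNA per cell cannot be told apart.

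The AK probes were dimmer as a class than probes of curated protein-coding transcripts. On the 4 HOM father arrays 50.2%, 41.4%, 42.8% and 44.0% of them were well above background, and on the 4 HET father arrays 48.4%, 43.9%, 39.0% and 40.5%. The mean was 44.6% ± 3.88 (SD, n = 4) with HOM fathers and 43.0% ± 4.17 (SD, n = 4) with HET fathers, and the groups overlapped. Probes named by an NM_ accession, the RefSeq prefix of curated protein-coding transcripts, were well above background in 70.4% to 75% and 68.6% to 73.9% of cases on the same arrays. HOM father replicate 1 and HET father replicate 1 had the highest share in their group for both classes.

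Over all 8 arrays, 1001 AK probes (40.1%) were never well above background and 879 (35.2%) always were. A further 426 were so on 1 to 3 arrays and 191 on 4 to 7. Of the 26536 NM_ probes, 20.5% were never and 66.3% were always well above background. No AK probe was well above background on all 4 HET father arrays and on no HOM father array, and 2 showed the opposite pattern. Tests were run on probes that reached both well above background and the array's 20th percentile on 4 or more of the 8 arrays, which kept 1070 AK probes (42.9%) and 70.8% of the NM_ probes. Among these 1070, 92 were well above background on more HOM than HET father arrays and 53 on more HET than HOM father arrays. The mean share of NM_ probes well above background was also higher on the HOM father arrays, at 71.8% against 70.5%. Their median signal was -2.54, against 0.40 for the tested NM_ probes. The statements below on tested AK probes cover these 1070 and not the other AK probes, and a probe that entered through 1 group alone had to differ between the groups.

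Altogether, 15 AK probes (1.40% of those tested) passed the 2 limits of the study's methods (adjusted p under 0.01, change of 2-fold or more), and all 15 were higher in embryos of HOM fathers. Among all 29718 tested probes 1.27% passed these limits and 1.24% passed them as higher and 0.0269% as lower, so the share of AK probes called was close to that of the array. The share among tested NM_ probes was 0.431%. The 15 changes ran from 2.00-fold to 3.25-fold, with a median log2 change of 1.20, and every HOM father embryo lay above every HET father embryo for all 15. All 15 were well above background on the 4 HOM father arrays, and 10 of them on all 8 arrays. Under scaling to the median in place of the 75th percentile 10 AK probes passed the limits, and with normexp background correction 6 did. The calls among all 29718 tested probes also fell, from 376 to 262 and 144 in the same order.

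The largest rise was at AK087888 (A_66_P100268). Its signal was -0.25, -0.97, -0.38 and -0.22 in the HOM father embryos and -2.15, -2.14, -2.5 and -1.84 in the HET father embryos. The lowest HOM father embryo was thus above the highest HET father embryo by more than the SD of either group, which was 0.35 and 0.27. The rise was 3.25-fold (log2 change 1.70, SE 0.20, limma adjusted p = 0.00129). AK131895 (A_55_P2260052) stood at 1.14, 0.81, 0.91 and 1.03 with HOM fathers and at -0.21, -0.61, -0.71 and -0.64 with HET fathers. It rose 2.86-fold (log2 change 1.52, SE 0.12, limma adjusted p = 0.000333).

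For AK036683 (A_55_P1954643) the HOM father embryos gave 1.49, 1.79, 1.58 and 1.59 and the HET father embryos 0.24, 0.02, 0.25 and 0.17. The spread within each group was small beside the rise of 2.72-fold (log2 change 1.44, SE 0.08, limma adjusted p = 8.43e-05). AK138782 (A_55_P1962781) was measured at -0.12, -0.27, -0.38 and -0.11 against -1.29, -1.56, -1.62 and -1.5, a rise of 2.42-fold (log2 change 1.27, SE 0.09, limma adjusted p = 0.000218). AK131895, AK036683 and AK138782 were the 3 of the 15 that passed the limits under every alternative tried.

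The lowest adjusted p of the 15 was that of AK163205 (A_55_P2161773), whose replicates lay closest together. Its signal was 0.65, 0.63, 0.61 and 0.69 in the HOM father group and -0.32, -0.51, -0.50 and -0.51 in the HET father group, with SDs of 0.03 and 0.09. The log2 change was 1.1 (SE 0.06, limma adjusted p = 6.34e-05). With normexp background correction this change was 0.97, below the fold limit. AK029472 (A_66_P128440), at 1.22, 1.37, 1.34 and 1.39 against 0.40, 0.10, 0.19 and 0.17, changed by 1.12 (SE 0.08, limma adjusted p = 0.000159). AK163205, AK029472, AK131895 and AK036683 were the 4 called AK probes with a mean signal above 0.

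Among called probes of lower signal that were well above background on all 8 arrays, AK014704 (A_55_P2320085) was at -0.25, 0.14, 0.06 and -0.00 with HOM fathers and at -1.16, -1.41, -0.89 and -1.15 with HET fathers (log2 change 1.13, SE 0.12). AK049815 (A_55_P2340885) was at -2.16, -2.0, -2.16 and -1.92 against -3.23, -3.20, -3.49 and -3.23 (log2 change 1.23, SE 0.09). AK009785 (A_55_P2248315) gave -1.76, -2.14, -2.01 and -2.0 against -2.89, -3.27, -3.21 and -3.36 (log2 change 1.20, SE 0.12). In each of these the groups were separated by more than the range within either group. AK157006 (A_55_P2412329) gave -3.17, -3.28, -3.17 and -3.03 against -4.32, -4.43, -4.44 and -4.27 (log2 change 1.20, SE 0.07). The limma adjusted p was 0.000998 for AK014704, 0.000195 for AK049815, 0.000681 for AK009785 and 8.82e-05 for AK157006. With normexp background correction the log2 changes of AK049815, AK009785 and AK157006 were 0.86, 0.79 and 0.66, below the fold limit.

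The other 5 called probes had a mean signal below -4 and were well above background on only 1 or 2 of the 4 HET father arrays, so their HET father means rest partly on spots near background. AK140131 (A_55_P1954436; 1 HET father array) had HOM and HET father means of -4.04 ± 0.11 and -5.29 ± 0.40 (SD, n = 4 each). AK031662 (A_55_P2145775; 1 HET father array) had means of -4.38 ± 0.24 and -5.61 ± 0.41, and its adjusted p of 0.00682 from limma was the highest of the 15. AK050412 (A_55_P2258261; 1 HET father array) had means of -3.98 ± 0.24 and -5.03 ± 0.13. The HOM father SD was the larger of the pair for AK050412 and the HET father SD for AK140131 and AK031662. AK019939 (A_55_P2241488) and AK015093 (A_55_P2188374), each well above background on 2 HET father arrays, differed by 1.06 (SE 0.12) and 1.00 (SE 0.08) on the log2 scale. None of these 5 kept its call in all 8 fits that each left out 1 array, whereas the other 10 did.

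The study's own list was chosen on these samples and is therefore no independent evidence. It holds genes reported as differentially expressed both on the arrays and in RNA sequencing of the same embryos. Among the probes listed there were 6 AK probes, and all 6 were among the 15. Why the other called AK probes are absent from that list was not tested. The descriptions there name AK036683 as a cDNA from adult male bone, AK138782 from neonate thymus, AK049815 from adult male hippocampus and AK163205 from neonate cerebellum. AK036683 and AK049815 were described as unclassifiable and AK138782 as a hypothetical protein. In that list the probe of AK131895 stands under the predicted RNA Gm17753, and the probe of AK029472 under BB094273.

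Just outside the fold limit, 5 AK probes with an adjusted p below 0.01, named after their values were seen, were higher in embryos of HOM fathers. AK137587 (A_55_P2368098) rose by 0.96 on the log2 scale, with means of -2.85 ± 0.17 and -3.81 ± 0.15 (SD, n = 4 each). AK170575 (A_55_P2025518) rose by 0.95, AK079527 (A_66_P106238) by 0.94 and AK015836 (A_55_P2214625) by 0.93. AK157043 (A_55_P2170439), with a fitted difference of 0.93, was well above background on only 1 HET father array, so its HET father mean rests mostly on spots near background. With the adjusted p limit alone, 111 AK probes (10.4%) were higher and 4 (0.374%) were lower, against 7.18% and 1.64% of all tested probes.

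These 4 lower probes were AK046698, AK145507, AK038789 and AK161937, also named after their values were seen. AK046698 (A_55_P2397240) stood at -2.11, -2.45, -2.28 and -2.19 with HOM fathers and at -1.41, -1.55, -1.84 and -1.72 with HET fathers. It fell by 0.63 on the log2 scale (SE 0.11, limma adjusted p = 0.00769), and no HOM father embryo reached the lowest HET father embryo. The other 3 probes differed less and had a smaller spread. AK145507 (A_66_P110798), for example, was at 5.02, 4.99, 5.02 and 5.09 against 5.36, 5.27, 5.26 and 5.28 (limma adjusted p = 0.00769). The father differences of AK038789 (A_52_P368262) and AK161937 (A_55_P2096834) were -0.26 and -0.25.

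The direction of the smaller changes among AK probes depended on the scaling. At an adjusted p below 0.05 with no fold limit, 187 AK probes (17.5%) lay higher in the HOM father group and 44 (4.11%) lay lower, against 12.3% higher and 8.69% lower among all tested probes, and 6.61% and 10.3% among NM_ probes. The lower count was not stable to leaving out 1 array: it was 29, 15 and 22 without HOM father replicate 1, 3 or 4, and 19, 25 and 18 without HET father replicate 2, 3 or 4. The drop was not particular to AK probes. Among all tested probes the lower share fell from 8.69% to 4.66%, 4.39% and 4.72%, and to 5.58%, 3.93% and 4.67%, in the same fits. With each array scaled to its median, which moved the median father difference of all tested probes from -0.02 to -0.21, the counts for AK probes were 118 higher (11%) and 230 lower (21.5%). All tested probes then gave 7.87% higher and 34.8% lower, and NM_ probes 3.59% and 41.1%. After quantile normalization 158 AK probes (14.8%) were higher and 70 (6.54%) lower, against 6.53% and 8.88% of NM_ probes. The AK probes thus had a larger share of higher and a smaller share of lower calls than the NM_ probes under all 3 scalings, whereas the order of the counts of higher and lower AK probes turned under the median. Scaling to the median shifts all probes of an array alike. It therefore leaves the gap in father difference between the classes unchanged and is no separate check of it.

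Complete separation of the groups gave a similar split. Every HOM father embryo lay above every HET father embryo for 199 tested AK probes (18.6%), against 14.1% of all tested probes, and below for 58 (5.42%), against 13% of all tested probes. By sign alone, 614 of the 1070 AK probes (57.4%) had the higher mean in the HOM father group, against 38.8% of the NM_ probes. Restricting both classes to probes well above background on all 8 arrays, with no new fit, left 879 AK probes, of which 161 (18.3%) passed an adjusted p of 0.05 as higher and 41 (4.66%) as lower, against 6.07% and 11% of 17582 NM_ probes. With scaling to the median, 356 AK probes (33.3%) had the higher mean in the HOM father group, against 15% of NM_ probes. Of the 879 probes, 98 (11.1%) then passed an adjusted p of 0.05 as higher and 217 (24.7%) as lower. The NM_ shares were 2.97% and 43.6%. After quantile normalization 467 AK probes (43.6%) had the higher mean, against 39% of NM_ probes. Of the 879, 141 (16%) were then higher and 64 (7.28%) lower, against 6.34% and 9.28% of NM_ probes. Complete separation was counted under the 75th percentile scaling alone.

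The median father difference of the tested AK probes was 0.05 on the log2 scale, with quartiles of -0.13 and 0.31, against -0.05 for NM_ probes and -0.02 for all tested probes. After quantile normalization the AK median was -0.048 and the NM_ median -0.049, so the classes were nearly equal by this measure. Scaling to the median gave -0.14 for AK and -0.24 for NM_ probes. As the father difference of NM_ probes was higher in dim bins, with a median of 0.14 between signals of -5 and -4 and of -0.09 between 3 and 4, AK probes were set against NM_ probes in bins of 1 log2 unit of mean signal. The median of the AK father differences, each taken minus the median of the NM_ probes in its bin, was 0.03. All 14 bins with a tested AK probe held at least 20 NM_ probes, and in 12 of them the AK median was the higher, the exceptions being the bins from -6 to -5 and from -5 to -4. Where a bin held few AK probes, as in the 5 bins above 3, its AK median rests on 5 to 12 probes.

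Array by array, the median deviation of AK probes from their own mean over the 8 arrays, taken minus that of NM_ probes of the same signal, was 0.05, -0.04, 0.04 and 0.05 with HOM fathers. With HET fathers it was -0.04, -0.01, -0.06 and -0.01. The groups overlapped, since HOM father replicate 2 fell within the range of the HET father embryos. The group means were 0.03 ± 0.04 and -0.03 ± 0.02 (SD, n = 4 each), so that the difference between classes at equal signal was small beside the changes of the 15 called probes.

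Per bin, the AK probes with the highest share of calls were those with a mean signal between 0 and 1, where 4 of 59 (6.78%) were called, against 3 of 2183 NM_ probes (0.137%). These 4 are AK131895, AK036683, AK029472 and AK163205. This bin was named because its share was the highest of the 14 bins, and the share rests on these 4 probes. Over all bins 1.40% of the tested AK probes were called, close to the 1.27% of all tested probes. In the bin from 0 to 1, 19 AK probes (32.2%) passed an adjusted p of 0.05 as higher and 6 (10.2%) as lower, against 5.68% and 11% of NM_ probes. Between -5 and -4, 5 of 191 AK probes (2.62%) and 1.49% of NM_ probes were called, and between -4 and -3, 1 of 240 AK probes (0.417%) and 1.16% of NM_ probes. If each bin's NM_ share is weighted by its number of AK probes, 0.909% would be called, against 1.40% observed, and 9.73% would be higher at an adjusted p below 0.05, against 17.5%. The corresponding share of lower probes was 5.33%, against 4.11%. These shares are descriptions, since probes on 1 array are not replicates.

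For comparison, probes designed to non-coding transcripts were described in the same way. Of 5218 tested long intergenic non-coding RNA probes, which are named by a genomic interval, 2.63% were called, and at an adjusted p below 0.05 25.3% were higher and 3.26% lower. Of 520 tested probes with an NR_ accession, the RefSeq prefix of curated non-coding transcripts, 2.12% were called, 11.9% were higher and 6.92% lower, the last 2 shares close to the 12.3% and 8.69% of all tested probes. The median father difference was 0.12 in the former and 0.01 in the latter, with the AK probes between them at 0.05. Their median signals were -3.01 and -1.80 in the same order, with AK probes between them at -2.54. The median SD within groups was 0.188 and 0.172, against 0.187 for AK probes, so low signal and this spread were not particular to AK probes. Differences between these classes were not tested.

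Within the AK probes, calls came from both large accession ranges and from 2 of the 5 probe design series. Accessions starting AK0 gave 757 tested probes with 10 calls and 17.3% higher at an adjusted p below 0.05, and those starting AK1 gave 309 tested probes with 5 calls and 18.1% higher. Lower probes were 2.91% of the former and 7.12% of the latter. Of the 15 called probes, 13 were of the A_55 series, which holds 872 of the tested AK probes, and 2 of the A_66 series, which holds 81. The A_51 series, with 45 tested AK probes, and the A_52 series, with 60, gave no call and had 8 and 7 probes higher at an adjusted p below 0.05.

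For 35 accessions the array held more than 1 probe, 75 probes in all, which show how far probes to 1 record can differ. None of these accessions was called. In 22 of them no probe was tested, in 8 exactly 1 was, and in 5 at least 2 were. Among these 5, the father differences of the probes of 1 accession lay between 0.04 and 0.50 log2 units apart. AK139675 is an example, with 3 probes. A_55_P2037919 and A_55_P2037918 were well above background on all 8 arrays, with father differences of -0.22 and -0.32, whereas A_55_P2180849 was well above background on none. In 5 accessions 1 probe was well above background on all 8 arrays while another was so on none. The signal of 1 AK probe was thus not always that of the other probes of its record.

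A pair of AK probes was well above background on every HOM father array and on no HET father array, named here after the values were seen. AK163354 (A_55_P1963304) stood at -4.54, -4.19, -4.45 and -3.62 with HOM fathers and at -5.61, -5.22, -5.02 and -5.34 with HET fathers. As its HET father signal was not well above background, only a limit on the difference of the means of these embryos can be given. This limit was 1.92-fold, higher with HOM fathers, and the limma adjusted p of 0.0109 missed the limit for a call. For AK016381 (A_55_P2018621), at -5.25, -4.43, -4.15 and -4.12 against -6.71, -4.83, -5.32 and -4.86, the same limit was 1.40-fold (limma adjusted p = 0.185). Its groups overlapped, since HOM father replicate 1 lay below 2 of the HET father embryos, so no minimum rise can be read from this value. These limits set the HOM father mean against, per HET father array, the lowest signal of any probe well above background there or the probe's own signal if that was higher. They leave out the spread between embryos. Both probes passed the filter through the HOM father arrays alone, so a higher HOM father signal was built into their choice.

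Embryo sex, with father as a covariate, gave 1 called AK probe (0.0935% of those tested), against 0.0606% of all tested probes. AK049583 (A_55_P2172742) stood at -3.94 and -4.01 in the HOM father females and at -4.03 and -3.82 in the HET father females. In the males it stood at -2.75 and -2.56 with HOM fathers and at -2.40 and -2.55 with HET fathers. All 4 males were thus above all 4 females, with means of -2.56 ± 0.14 and -3.95 ± 0.10 (SD, n = 4 each), and the probe was 2.62-fold higher in males (limma adjusted p = 0.00152). Its father difference was -0.12 (limma adjusted p = 0.898). In fits without HOM father replicate 2 or 4, or HET father replicate 2, 3 or 4, the adjusted p was between 0.0109 and 0.0153, with a log2 difference (female minus male) of -1.42 to -1.34, so the call was lost.

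No AK probe passed the limits for an interaction of father and sex, nor did any tested probe on the array (0% called). At an unadjusted p below 0.05, 57 AK probes and 1342 of all tested probes were counted in the limma fit, and the lowest adjusted p was 0.126. The variance trend and robust setting also gave 0 AK calls. For the 15 probes called by father, the lowest adjusted p was 0.914 for sex and 1.00 for the interaction.

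The 5 AK probes with the highest signal varied little. AK146304 (A_55_P2056190) ranged from 7.56 to 7.72 with HOM fathers and from 7.62 to 7.81 with HET fathers. The ranges of the groups also overlapped for AK203298 (A_55_P2068812), AK136409 (A_55_P2078994) and AK132518 (A_55_P1966585). For AK158840 (A_55_P2048650), at 7.25 to 7.39 with HOM fathers and 7.03 to 7.22 with HET fathers, they did not overlap. Their father differences ran from -0.14 for AK203298 to 0.17 for AK158840, the latter with a limma adjusted p of 0.102, and none of the 5 passed the limits.

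Other AK probes varied strongly between embryos of 1 group. Among those well above background on all 8 arrays, AK031269 (A_55_P1974432) had the largest SD within groups, 1.63. It stood at 2.35, 2.46, 2.35 and 3.26 with HOM fathers and at 2.20, 2.35, 2.52 and -2.18 with HET fathers, so HET father replicate 4 alone was low. AK144629 (A_55_P2194064) stood at 1.56, 1.35, 4.05 and 1.18 with HOM fathers and at 4.27, 1.71, 4.47 and 4.49 with HET fathers. Its 4 high embryos were HOM father replicate 3 and HET father replicates 1, 3 and 4, 2 females and 2 males, with no embryo between 1.71 and 4.05. The father difference of AK144629, -1.70, was as large as that of AK087888 but had an SE of 0.84 (limma adjusted p = 0.195).

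AK148445 (A_55_P2278093) was high in HOM father replicate 2, at -1.75, and HET father replicate 4, at -1.56, with an intermediate -3.28 in HET father replicate 3 and -4.47 to -4.21 elsewhere. AK005583 (A_51_P379687) was spread from -4.67 to -1.41 with HOM fathers and from -4.64 to -2.33 with HET fathers. AK160358 (A_55_P2252891) reached -0.67 in HOM father replicate 4, whereas the other 7 embryos lay between -4.03 and -3.03. For all 5 of these variable probes the groups overlapped, and none was called by father or by sex. Over all tested AK probes the median SD within groups was 0.187, against 0.111 for NM_ probes. With bins of mean signal weighted by their AK probes it was 0.209 for AK and 0.194 for NM_ probes, a smaller gap than over all probes.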

How the data were processed

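Per the labels, 0.2 µg of DNase-treated total RNA per embryo was labelled with Cy3 and hybridised to 1 array. The authors made the deposited intensities with Agilent Feature Extraction 11.0.1.1 (version from the submitters' processing notes), which subtracts background and sets a floor, with no normalization between arrays. Deposited spot flags, other values of 0 or 1, marked outliers, which were left out, and spots well above background. No spot was saturated. Spots of 1 probe were averaged as log2 values after subtraction of the array's 75th percentile.

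Of 55681 probes, 53.4% were tested with limma 3.58.1 in R 4.3.3 (lmFit and eBayes, two-sided, Benjamini-Hochberg over all tested probes), with summaries in Python 3.11.15. The father comparison had no covariate, as in the study's methods. The father fit was also run on simulated data with independent noise and known changes in some probes. Those data held no slide or shared-father effect, so they do not bear on such effects here. The labels name no sires, so p-values measure the spread between these embryos. The number of arrays limits the precision. Members, lists and rules were chosen with earlier results of these data known. By rule the text names the called AK probes with non-overlapping groups, the 5 brightest, those called by sex and the 5 most variable. The rule's gene lists and same-gene NM_ probes could not be applied, as no AK accession matched a gene. Normexp used median spot signals and an offset of 50, a constant added to each intensity before the log2. Alternatives covered scaling, background correction, filters, covariates, blocks, variance settings and left-out arrays.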

Additional observations from a re-analysis of the deposited data

Results flagged for a closer look

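In 9 of 58 groups of 4 embryos examined for the named AK probes and the array-wide AK measures, 1 embryo stood apart from the other 3 by Dixon's criterion, which chance meets in about 1 in 20 groups, here 2.9. The most variable probes were named for their spread, so they meet it more readily. AK031269 was at -2.18 in HET father replicate 4 and at 2.20 to 2.52 in the rest of that group, and at 3.26 in HOM father replicate 4 against 2.35 to 2.46. AK144629 was at 4.05 in HOM father replicate 3 against 1.18 to 1.56, and at 1.71 in HET father replicate 2 against 4.27 to 4.49. AK148445 was at -1.75 in HOM father replicate 2 against -4.47 to -4.23.

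Among the probes called by father, AK049815 was at -3.49 in HET father replicate 3 against -3.23 to -3.20, and AK163205 at -0.32 in HET father replicate 1 against -0.51 to -0.50. In both, the embryo that stood apart remained below all HOM father embryos. Of the brightest probes, AK146304 was at 7.72 in HOM father replicate 4 against 7.56 to 7.58, and AK132518 at 7.49 in the same embryo against 7.27 to 7.30.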

How the results depend on the processing

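The 15 AK calls by father, all higher, became 6 (all higher) with normexp background correction and, with no fold limit, 115, of which 111 were higher. In every other setting the count was between 10 and 16, and between 12 and 16 in the fits that each left out 1 array. None of the 15 changed sign, but AK probes outside the 15 were called lower without HOM father replicate 1 (14 of 15 calls higher), without HET father replicate 1 (13 of 15) and without HET father replicate 4 (15 of 16). Of the 10 calls well above background on all arrays, each was kept in all 8 fits without 1 array. AK031662 was kept in 1 of these fits, that without HET father replicate 3. AK015093 was lost without HOM father replicate 1 or 3 or HET father replicate 1, 2 or 3, AK140131 without HOM father replicate 2, 3 or 4 or HET father replicate 4, AK050412 without replicate 1 of either group, and AK019939 without HET father replicate 3. Over all 8 such fits the log2 changes of these 5 ran from 0.95 to 1.36 and the limma adjusted p from 0.000988 to 0.0231. The number that opens each source name (the identifier number), of unstated meaning, is shared by HOM father replicates 3 and 4 and by HET father replicates 1 and 2. As a random block (consensus correlation 0.302) it left 13 calls, without AK031662 and AK015093. Correlations of same-numbered embryos were 0.19, -0.09, -0.13 and 0.15, and the same-numbered embryo was the closest partner for replicates 1 and 4 only. These values cannot show whether embryos came from fathers that were brothers. With the replicate block 10 AK probes were called, and the lower AK probes at an adjusted p below 0.05 fell to 10. The median father difference of AK probes reversed to -0.048 after quantile normalization and -0.14 after median scaling, and without 1 array ranged from 0.03 to 0.07. The NM_ medians were -0.049 after quantile normalization and -0.24 after median scaling. The AK minus NM_ difference at equal signal kept its sign in all settings, from 0.01 with no filter on low values to 0.06 without HOM father replicate 2. Median scaling, which shifts all probes of an array alike, was no separate check of this sign. The counts at an adjusted p below 0.05 were recomputed by choice made after seeing the data. Higher AK probes came to 118 with median scaling, and to between 146 and 178 without 1 array. Lower AK probes came to 70 after quantile normalization, 230 with median scaling, 70 with normexp, 3 with no filter on low values, 24 with the identifier number as a random block, and 15 to 35 without 1 array. The AK call by sex was lost (0 calls) with normexp and with no filter, and ranged from 0 to 1 without 1 array. The mean share of AK probes detected was 43.8% and rose to 64.1% with Agilent's flag for positive and significant signal, and was between 42.9% and 44.5% without 1 array. The cause of these shifts was not tested. Near-background signal limits the 5 dimmest calls. With normexp background correction 9 of the 15 calls were lost. These included AK049815, AK009785, AK157006 and AK163205, each well above background on all 8 arrays. This setting added an offset of 50 to each intensity, and a constant so added narrows log2 differences most for dim probes. The log2 change went from 1.22 to 0.36 for the dim AK031662 and from 1.442 to 1.445 for the brighter AK036683. The part of the offset in the lost calls was not tested.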
